A study of Homo sapiens with 18 samples.

Results

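The genes of MHC class I and of its peptide loading were followed in HL-60 and MOLM-13, which are established human acute myeloid leukaemia cell lines. The 9 genes were taken by symbol: the heavy chains HLA-B, HLA-C, HLA-E and HLA-F, the light chain B2M, the peptide transporter subunits TAP1 and TAP2, the loading chaperone TAPBP and the transactivator NLRC5. Of these, 8 were among the 17110 genes listed for HL-60, where HLA-F was not listed, and 9 were among the 17475 listed for MOLM-13. Each line had been cultured in serum-containing RPMI1640 medium and sampled on day 2, after 48 h with DMSO (the solvent), with decitabine (DAC) or with NTX-301. There were 3 samples in each of the 6 groups, 18 in all, and expression came from stranded total RNA sequencing. DAC, a cytidine analogue, inhibits DNA methyltransferases, and NTX-301 is another inhibitor of these enzymes. The stated dose was 30 nM in HL-60 and 15 nM in the MOLM-13 line. The wording leaves unclear whether it covers NTX-301 as well as DAC, so the drugs may not have been given at matched doses, and dose and line cannot be told apart. Nothing in the labels says that the 3 samples of a group came from separate cultures, so p-values measure the spread between these samples, which may be technical.

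MHC class I molecules carry short peptides from inside the cell to its surface, where CD8 T cells and natural killer cells read them. Peptides are cut by the proteasome, pumped into the endoplasmic reticulum by the TAP1/TAP2 transporter, and fitted into a heavy chain paired with B2M while TAPBP (tapasin) holds the complex at the transporter. Transcription of the class I heavy chain genes is driven by NLRC5, which acts with RFX, CREB/ATF and NF-Y proteins on shared promoter boxes. Interferon and NF-kappaB factors also drive genes of this pathway.

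Promoters of 4 members whose DAC effect differed between the lines (HLA-B, HLA-C, TAP1 and TAPBP) are printed first, beside that of B2M, which was not called in any comparison. Each is the 250 bases before the start site from RefSeq (GRCh38.p14), 5′ to 3′ on the gene's strand. The windows are chr6:31357180-31357429 (minus strand) for HLA-B, chr6:31272093-31272342 (minus) for HLA-C, chr6:32853705-32853954 (minus) for TAP1, chr6:33314079-33314328 (minus) for TAPBP and chr15:44711267-44711516 (plus) for B2M. Capitals mark matches, on either strand, to 4 motifs: the interferon-stimulated response element core (GAAA, 2 bases of any kind, GAAA), the kappaB motif (GGG, 2 bases of any kind, T, 2 bases of any kind, CC), the Y box CCAAT and the X2 box TGACGC.
HLA-B: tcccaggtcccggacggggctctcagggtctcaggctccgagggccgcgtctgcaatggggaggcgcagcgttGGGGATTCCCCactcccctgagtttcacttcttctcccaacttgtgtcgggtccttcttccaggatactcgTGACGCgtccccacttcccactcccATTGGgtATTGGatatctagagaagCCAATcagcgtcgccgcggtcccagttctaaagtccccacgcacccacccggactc
HLA-C: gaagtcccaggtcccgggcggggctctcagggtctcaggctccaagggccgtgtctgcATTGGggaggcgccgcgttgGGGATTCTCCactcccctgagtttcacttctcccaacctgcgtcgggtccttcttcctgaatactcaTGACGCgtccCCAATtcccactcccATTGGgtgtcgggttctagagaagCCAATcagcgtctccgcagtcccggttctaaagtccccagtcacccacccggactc
TAP1: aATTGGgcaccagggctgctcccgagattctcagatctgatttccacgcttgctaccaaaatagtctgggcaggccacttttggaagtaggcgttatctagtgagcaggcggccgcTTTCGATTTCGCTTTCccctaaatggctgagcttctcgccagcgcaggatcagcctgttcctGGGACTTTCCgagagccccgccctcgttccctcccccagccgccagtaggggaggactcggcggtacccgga
TAPBP: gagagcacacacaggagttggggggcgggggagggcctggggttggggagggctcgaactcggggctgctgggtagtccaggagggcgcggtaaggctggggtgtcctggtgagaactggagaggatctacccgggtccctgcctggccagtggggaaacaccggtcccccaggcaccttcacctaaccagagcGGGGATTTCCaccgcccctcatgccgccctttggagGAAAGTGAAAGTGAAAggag
B2M: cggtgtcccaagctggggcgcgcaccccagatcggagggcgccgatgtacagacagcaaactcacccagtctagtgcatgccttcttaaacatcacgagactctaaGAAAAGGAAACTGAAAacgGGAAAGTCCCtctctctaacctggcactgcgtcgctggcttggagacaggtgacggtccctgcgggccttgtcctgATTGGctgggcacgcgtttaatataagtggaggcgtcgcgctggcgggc

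The core of the interferon-stimulated response element was present in 3.02% of all 35116 windows of this length, the kappaB motif in 19.7%, CCAAT in 32.0% and TGACGC in 7.67%. The printed TAP1, TAPBP and B2M windows each held 2 matches to the response element core, which overlapped within each gene. The HLA-B and HLA-C windows held no exact match to it. Elements that depart from these letters were not counted, so this does not show that HLA-B and HLA-C lack such an element. HLA-B and HLA-C held the X2 box, at positions −106 to −101 and −105 to −100 from the start, and 3 and 4 CCAAT matches. All 5 windows held the kappaB motif, which in HLA-B gave overlapping matches. The table also holds a window for another TAP1 start site (chr6:32852762-32853011), with 0 matches to any of the 4 motifs. The TAP2 window, not printed, held 1 match to the response element core and 1 to the X2 box. The printed TAP1 window overlaps that of its neighbour PSMB9, an immunoproteasome subunit read from the other strand. A match is a description of letters and not evidence of binding.

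The values are log2 expression as the authors deposited them, and a difference is the mean of a drug group minus the mean of another group, with its standard error (SE). A gene is called higher or lower where limma, fitted over all genes of a line, gave a Benjamini-Hochberg adjusted p-value under 0.05. Low values in these files are drawn towards their mean over the 9 samples of 1 line, so fold changes of low genes are understated and levels are not compared between lines. In bulk RNA, fewer cells of a type and less RNA per cell cannot be told apart. Both lines had myeloid markers: 5 of 5 granule genes and 4 of 4 general myeloid genes were listed in either. The monocytic and FLT3 list held 6 genes, of which 3 were listed in HL-60 and 5 in MOLM-13. FLT3, LYZ and CSF1R were listed in both lines, HOXA9 and MEIS1 in MOLM-13, and CD14 in neither. Of 4 T cell, 4 B cell, 5 epithelial, 4 erythroid and 4 fibroblast markers, 1, 1, 1, 0 and 0 were listed in HL-60. The counts for MOLM-13 were 1, 0, 2, 2 and 1, in the same order.

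**Figure D1:**
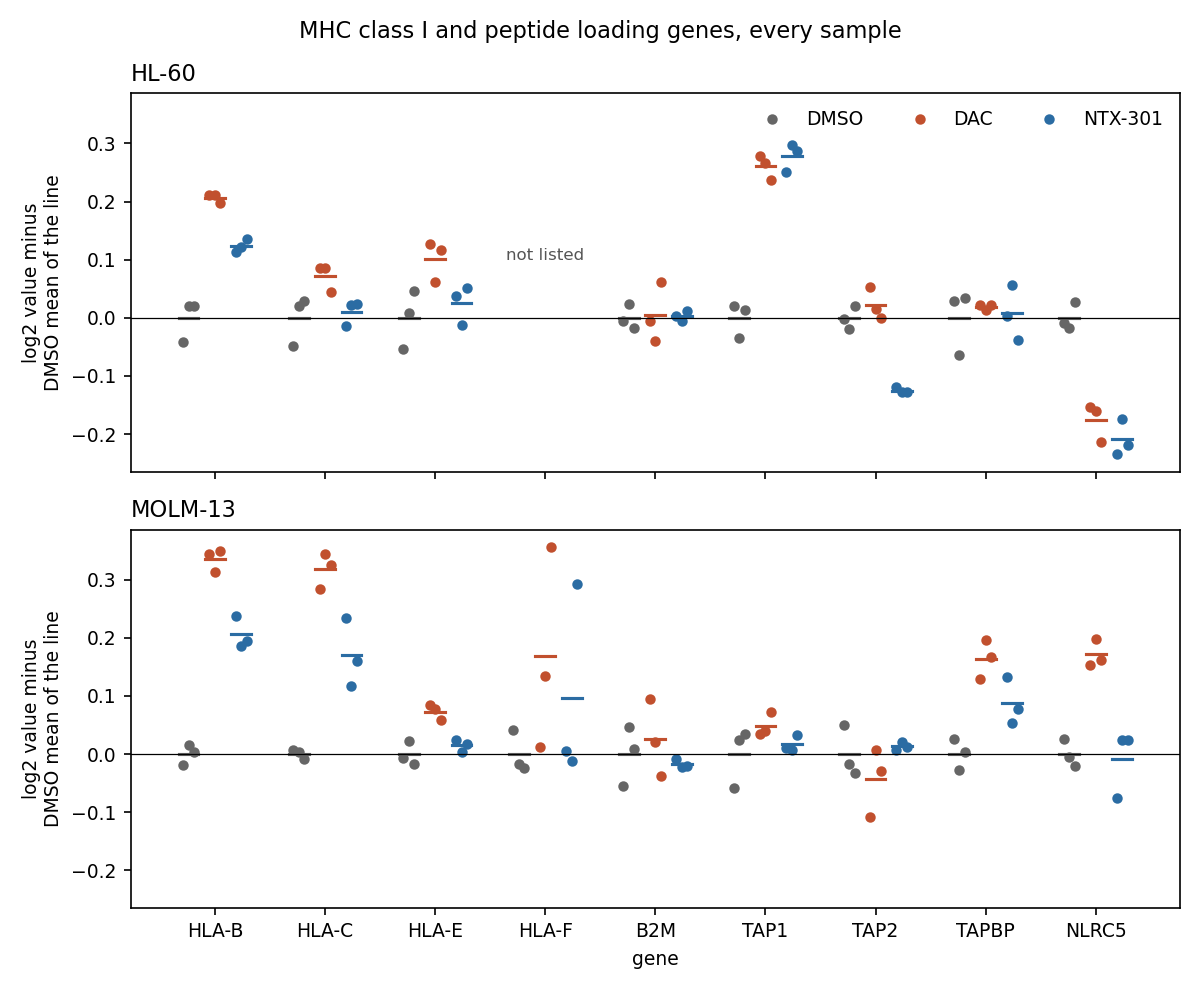
Log2 value of each gene in each sample minus the DMSO mean of its line, with HL-60 above and MOLM-13 below; points are samples, short bars are group means (n = 3), and colours are treatments. HLA-B stands above DMSO with both drugs in both lines, TAP1 does so in HL-60, and NLRC5 lies below DMSO in HL-60 and above it with DAC in MOLM-13.

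HLA-B, a classical heavy chain that presents peptides to CD8 T cells, was the member that rose with both drugs in both lines. In HL-60 its log2 value was 14.92, 14.99 and 14.99 in DMSO, 15.18, 15.18 and 15.16 with DAC, and 15.08, 15.09 and 15.10 with NTX-301. The MOLM-13 values of HLA-B were 14.58, 14.62 and 14.60 in DMSO, 14.95, 14.91 and 14.95 with DAC, and 14.84, 14.79 and 14.80 with NTX-301. No drug sample overlapped DMSO, and the NTX-301 samples lay between DMSO and DAC in both lines. The HL-60 difference was 0.21 (SE 0.020, adjusted p = 5.21e-06) with DAC, a linear ratio of 1.15, and 0.12 (SE 0.020, adjusted p = 0.000186) with NTX-301. The MOLM-13 difference was 0.34 (SE 0.023, adjusted p = 1.75e-06) with DAC, a ratio of 1.26, and 0.21 (SE 0.023, adjusted p = 2.67e-05) with NTX-301, which was 0.32 after quantile normalization.

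HLA-C, a classical heavy chain that is also a ligand of killer-cell immunoglobulin-like receptors, rose clearly in MOLM-13. There its value was 14.02, 14.02 and 14.01 in DMSO, 14.30, 14.36 and 14.34 with DAC, and 14.25, 14.13 and 14.18 with NTX-301. The 3 MOLM-13 groups did not overlap. The difference was 0.32 (SE 0.030, adjusted p = 1.40e-05) with DAC and 0.17 (SE 0.030, adjusted p = 0.000648) with NTX-301, or 0.27 after quantile normalization. In HL-60 it was 13.99, 14.05 and 14.06 in DMSO, 14.12, 14.12 and 14.08 with DAC, and 14.02, 14.06 and 14.06 with NTX-301. The HL-60 difference with DAC was 0.072 (SE 0.023, adjusted p = 0.0379). That call was lost after quantile normalization (0.072), without the variance trend, with only the 2 groups fitted, and in 5 of the 9 fits with a sample left out. It was 0.048 without DMSO replicate 1, 0.082 without DMSO replicate 2, 0.065 without DAC replicate 1 or DAC replicate 2, and 0.072 without NTX-301 replicate 2. With NTX-301 in HL-60 the HLA-C difference was 0.011 (95% interval −0.040 to 0.061, not called).

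HLA-E, a nonclassical chain that shows leader peptides of other class I chains to NKG2A on natural killer cells, had smaller differences. In HL-60 it was 12.87, 12.93 and 12.97 in DMSO, 13.05, 12.99 and 13.04 with DAC, and 12.96, 12.91 and 12.98 with NTX-301. The MOLM-13 values of HLA-E were 14.14, 14.17 and 14.13 in DMSO, 14.23, 14.23 and 14.21 with DAC, and 14.17, 14.15 and 14.17 with NTX-301. The DAC samples lay above DMSO in both lines, and the NTX-301 samples overlapped DMSO in both. The difference with DAC was 0.10 (SE 0.029, adjusted p = 0.0187) in HL-60 and 0.073 (SE 0.021, adjusted p = 0.0168) in MOLM-13. Leaving out 1 sample ended the HL-60 call without DMSO replicate 1 (0.075), DAC replicate 1 (0.089) or DAC replicate 3 (0.095). The MOLM-13 call ended without DMSO replicate 3 (0.065) and after centring each sample on its median (0.036), while the difference was 0.17 after quantile normalization. With NTX-301 the HLA-E difference was 0.025 in HL-60 (95% interval −0.036 to 0.086) and 0.015 in MOLM-13 (95% interval −0.031 to 0.061), neither called. After quantile normalization the MOLM-13 value was 0.12 and called (adjusted p = 0.000341).

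HLA-F, a nonclassical chain known to reach the surface without peptide, was listed at a low level in MOLM-13. Its value was 6.12, 6.06 and 6.05 in DMSO, 6.09, 6.21 and 6.43 with DAC, and 6.08, 6.06 and 6.37 with NTX-301. Replicate 3 was the highest with both drugs, and the groups overlapped. The difference was 0.17 (SE 0.091, adjusted p = 0.175) with DAC and 0.096 (SE 0.091, adjusted p = 0.422) with NTX-301, and neither was called. Without DAC replicate 3 the former was 0.074, and without NTX-301 replicate 3 the latter was −0.0029.

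B2M, the light chain that every class I heavy chain needs to fold, was not called in any of the 6 comparisons within lines. In HL-60 it was 16.33, 16.36 and 16.32 in DMSO, 16.33, 16.30 and 16.40 with DAC, and 16.34, 16.33 and 16.35 with NTX-301. The MOLM-13 values of B2M were 15.68, 15.79 and 15.75 in DMSO, 15.83, 15.76 and 15.70 with DAC, and 15.73, 15.72 and 15.72 with NTX-301. All groups overlapped DMSO. The B2M difference with DAC was 0.0055 in HL-60 (95% interval −0.043 to 0.055) and 0.026 in MOLM-13 (95% interval −0.050 to 0.10). With NTX-301 it was 0.0030 (95% interval −0.046 to 0.052) and −0.018 (95% interval −0.094 to 0.059). Quantile normalization turned this result in MOLM-13, with 0.072 for DAC (adjusted p = 0.0221) and 0.059 for NTX-301 (adjusted p = 0.0443), both called higher.

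TAP1, an ATP-binding subunit of the peptide transporter, had the largest rise of the 8 members in HL-60 with either drug. Its HL-60 value was 11.34, 11.29 and 11.34 in DMSO, 11.60, 11.59 and 11.56 with DAC, and 11.57, 11.62 and 11.61 with NTX-301. Both drug groups lay wholly above DMSO and overlapped each other. The TAP1 difference was 0.26 (SE 0.026, adjusted p = 6.94e-06) with DAC and 0.28 (SE 0.026, adjusted p = 1.28e-06) with NTX-301, a linear ratio of 1.20 and 1.21. In MOLM-13 TAP1 was 11.72, 11.81 and 11.82 in DMSO, 11.82, 11.82 and 11.85 with DAC, and 11.79, 11.79 and 11.81 with NTX-301. The MOLM-13 differences of 0.049 (95% interval −0.016 to 0.11) and 0.017 (95% interval −0.048 to 0.082) were not called, and after quantile normalization they were 0.099 and 0.081 and both called (adjusted p = 0.0208 and 0.0403).

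TAP2, the other transporter subunit, did not follow TAP1. In HL-60 it was 12.52, 12.50 and 12.54 in DMSO, 12.57, 12.53 and 12.52 with DAC, and 12.40, 12.39 and 12.39 with NTX-301. The NTX-301 samples were the lowest 3 of the line, and DAC overlapped DMSO. TAP2 differed from DMSO by −0.13 (SE 0.022, adjusted p = 0.000438) with NTX-301 and by 0.022 (SE 0.022, adjusted p = 0.508) with DAC. The MOLM-13 values of TAP2 were 11.74, 11.68 and 11.66 in DMSO, 11.59, 11.70 and 11.67 with DAC, and 11.70, 11.72 and 11.71 with NTX-301, with no call (−0.043 and 0.013). TAP2 is an uncertain value, since 35.8% of the 50-base stretches of its longest transcript also occur in transcripts of another gene, and the handling of such reads is not given in the sources used here.

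TAPBP, the chaperone that bridges class I chains to the transporter, rose in MOLM-13. There it was 13.19, 13.14 and 13.17 in DMSO, 13.30, 13.36 and 13.33 with DAC, and 13.30, 13.22 and 13.24 with NTX-301. All 6 drug samples lay above the DMSO samples. The TAPBP difference was 0.16 (SE 0.028, adjusted p = 0.000759) with DAC and 0.088 (SE 0.028, adjusted p = 0.0222) with NTX-301, or 0.25 and 0.19 after quantile normalization. The NTX-301 call ended after centring (0.058) and without DMSO replicate 2 (0.074), DMSO replicate 3 (0.090) or NTX-301 replicate 1 (0.066). In HL-60 TAPBP was 11.82, 11.73 and 11.83 in DMSO, 11.81, 11.81 and 11.82 with DAC, and 11.80, 11.85 and 11.76 with NTX-301, with no call (0.019 and 0.0076).

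NLRC5, the transactivator of class I genes, moved in opposite directions in the lines with DAC. In HL-60 it was 13.54, 13.54 and 13.58 in DMSO, 13.40, 13.39 and 13.34 with DAC, and 13.32, 13.38 and 13.33 with NTX-301. Both HL-60 drug groups lay wholly below DMSO. The HL-60 difference was −0.18 (SE 0.024, adjusted p = 0.000125) with DAC and −0.21 (SE 0.024, adjusted p = 9.83e-06) with NTX-301. In MOLM-13 NLRC5 was 12.41, 12.38 and 12.36 in DMSO, 12.54, 12.58 and 12.55 with DAC, and 12.31, 12.41 and 12.41 with NTX-301. Here DAC lay above DMSO by 0.17 (SE 0.031, adjusted p = 0.00105), and NTX-301 overlapped DMSO (−0.0092, 95% interval −0.076 to 0.058, not called).

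Over the 8 members in HL-60, DAC gave 4 higher and 1 lower, where 24.2% of all 17046 genes tested were called (11.6% higher, 12.6% lower). NTX-301 in HL-60 gave 2 higher and 2 lower of 8, against 37.4% of all genes (18.3% higher, 19.2% lower). Over the 9 members in MOLM-13, DAC gave 5 higher and 0 lower, against 36.6% of the 17475 genes tested (15.4% higher, 21.2% lower). NTX-301 gave 3 higher and 0 lower of 9 there, against 45.1% (20.3% higher, 24.8% lower). Drug and DMSO samples did not overlap for 5 of 8 members with DAC in HL-60, where 38.5% of all genes were apart, and for 4 of 8 with NTX-301, where 47.2% were. The same held for 6 of 9 members with DAC in MOLM-13, against 47.9% of genes, and for 3 of 9 with NTX-301, against 55.8%. The HL-60 count of 5 called with DAC was 3 without DMSO replicate 1 or without DAC replicate 1, and the MOLM-13 count of 3 called with NTX-301 was 6 after quantile normalization.

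Levels of granule and monocyte markers moved in the same samples. In MOLM-13 the summed linear level of the 5 listed monocytic and FLT3 markers ran from 193815 to 207320 with DAC, against 136736 to 144215 in DMSO. NTX-301 gave 141661 to 147391. LYZ, a lysozyme of monocytes and granulocytes, had a mean log2 value of 17.25 with DAC against 16.47 in DMSO, and NTX-301 gave 16.59 (n = 3). LYZ had the highest level of the 5, so the sum mostly follows it. CSF1R was higher with both drugs (10.33 with DAC and 10.22 with NTX-301, against 9.82 in DMSO). FLT3 (14.90 against 15.20), HOXA9 (12.28 against 12.43) and MEIS1 (12.41 against 12.56) were lower with DAC. NTX-301 gave 14.99 for FLT3, 12.32 for HOXA9 and 12.67 for MEIS1. In HL-60 the 5 granule markers summed to 402527 to 412026 with NTX-301, against 523313 to 556376 in DMSO. DAC gave 520916 to 522126. CD3D, the 1 T cell marker listed in MOLM-13, had means of 7.45 (DMSO), 7.57 (DAC) and 7.74 (NTX-301). The part of these shifts in the class I values was not tested.

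The drugs were then compared directly. NTX-301 gave less HLA-B and TAP2 than DAC in HL-60, 2 of 8 members with 0 higher, where 30.4% of all genes were called (15.4% higher, 15.0% lower). The 2 drug groups did not overlap for 4 of 8 members, against 44.4% of genes. The difference was −0.083 (SE 0.020, adjusted p = 0.00547) for HLA-B and −0.15 (SE 0.022, adjusted p = 0.000173) for TAP2. HLA-C (−0.061, 95% interval −0.11 to −0.011, adjusted p = 0.0624) and HLA-E (−0.077, 95% interval −0.14 to −0.016, adjusted p = 0.0564) were not called, although these too did not overlap. Both were called with only the 2 drug groups fitted (adjusted p = 0.0358 and 0.0385), without DMSO replicate 1 (−0.061 and −0.077) and after centring (−0.095 and −0.11), where NLRC5 was called too (−0.067). HLA-E was also called without DMSO replicate 3 (−0.077) or DAC replicate 2 (−0.097), and HLA-C without DAC replicate 3 (−0.075). After quantile normalization neither was called, at −0.019 for HLA-C (adjusted p = 0.607) and −0.051 for HLA-E (adjusted p = 0.213). For TAP1 the interval of the difference was −0.037 to 0.073 and for B2M −0.051 to 0.046, so differences of up to these sizes are not excluded.

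In MOLM-13, NTX-301 gave lower values than DAC for 3 of 9 members and higher values for 0, where 7.42% of all genes were called (3.01% higher, 4.41% lower). The 2 drug groups did not overlap for 5 of 9 members, against 27.3% of genes. NLRC5 differed by −0.18 (SE 0.031, adjusted p = 0.00611), HLA-C by −0.15 (SE 0.030, adjusted p = 0.0137) and HLA-B by −0.13 (SE 0.023, adjusted p = 0.00795). The NLRC5 and HLA-B groups did not overlap, nor did those of HLA-C, whose call ended without NTX-301 replicate 2 (−0.12) or NTX-301 replicate 3 (−0.14). TAPBP (−0.076, 95% interval −0.14 to −0.015) and HLA-E (−0.058, 95% interval −0.10 to −0.012) had adjusted p-values of 0.129 and 0.120. The interval was −0.12 to 0.033 for B2M, −0.096 to 0.033 for TAP1 and −0.018 to 0.13 for TAP2.

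**Figure D2:**
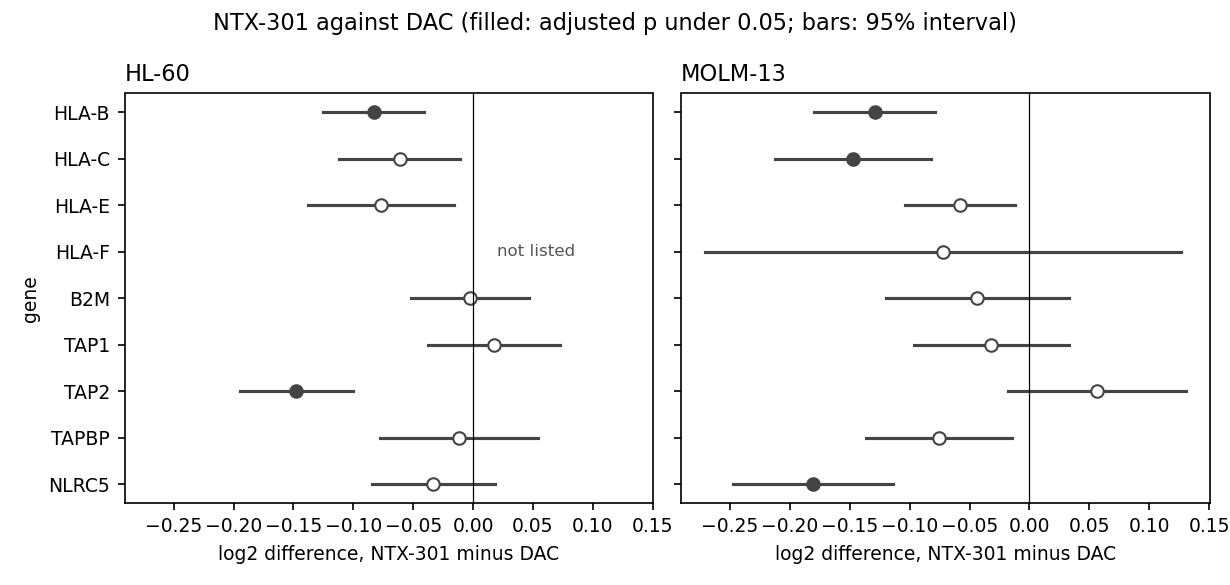
Log2 difference of NTX-301 minus DAC for each gene in HL-60 and MOLM-13; points are differences of group means (n = 3 against 3), bars are 95% intervals and filled points have an adjusted p-value under 0.05. The filled points are HLA-B and TAP2 in HL-60 and HLA-B, HLA-C and NLRC5 in MOLM-13, all below 0.

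The drug effects of the lines were set against each other as the MOLM-13 effect less the HL-60 effect. With DAC, 5 of 8 members differed (4 higher in MOLM-13, 1 lower), where 30.0% of the 15474 genes tested in both lines did (12.1% higher, 17.9% lower). With NTX-301, 5 of 8 differed as well (4 higher, 1 lower), against 40.0% of genes (17.6% higher, 22.4% lower). The members called lower were TAP1 each time. NLRC5 had the widest gap for DAC, 0.35 (SE 0.039, adjusted p = 2.22e-06), and differed by 0.20 (SE 0.039, adjusted p = 0.000445) for NTX-301. HLA-C differed by 0.25 (SE 0.039, adjusted p = 8.85e-05) and 0.16 (SE 0.039, adjusted p = 0.00283). TAP1 went the other way, by −0.21 (SE 0.037, adjusted p = 0.000276) and −0.26 (SE 0.037, adjusted p = 1.87e-05). HLA-B differed by 0.13 (adjusted p = 0.00259) and TAPBP by 0.14 (adjusted p = 0.0142) for DAC, or 0.23 and 0.22 after quantile normalization. The HLA-B gap of 0.083 for NTX-301 (adjusted p = 0.0318) was lost in 7 fits with a sample left out, at 0.067 to 0.084, and was 0.15 after quantile normalization. TAP2 differed by 0.14 (adjusted p = 0.00854) for NTX-301. HLA-E and B2M were not called for either drug. The stated dose differed between the lines as well, so these gaps belong to line and dose together.

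**Figure D3:**
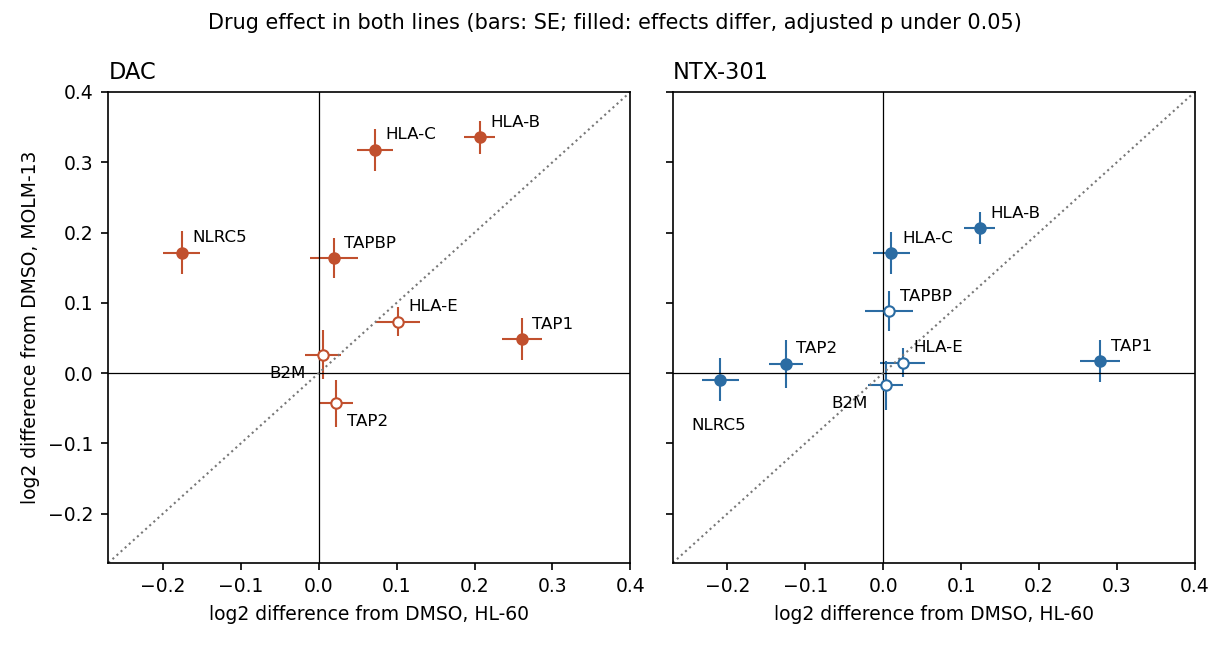
Log2 difference from DMSO in HL-60 (horizontal axis) and MOLM-13 (vertical axis) for the 8 genes listed in both lines, with DAC left and NTX-301 right; bars are 1 SE, the dotted line marks equal effects, and filled points have effects that differ between lines at an adjusted p-value under 0.05. TAP1 lies right of the dotted line with both drugs, and NLRC5 and HLA-C lie above it.

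Other genes of antigen processing, 67 in 9 lists by function, were counted in the same fits, with 56 listed in HL-60 and 64 in MOLM-13. Of the 56, 12 were called higher and 10 lower with DAC and 11 higher and 17 lower with NTX-301. Of the 64, 13 were higher and 14 lower with DAC and 13 higher and 24 lower with NTX-301. The companion shares called, 39.3% and 42.2% with DAC and 57.8% with NTX-301 in MOLM-13, stood above those of all genes given above, as did the 28 of 56 with NTX-301 in HL-60. The balance of higher and lower depended on the scaling. After centring, NTX-301 gave 7 higher and 25 lower in HL-60, where 13.3% and 35.7% of all genes were. It gave 11 higher and 28 lower in MOLM-13, where 15.7% and 33% of all genes were. After quantile normalization NTX-301 gave 16 higher and 14 lower in HL-60, where 17.2% and 19.1% of all genes were. It gave 18 higher and 15 lower in the other line, where 18.7% and 21.1% were. DAC in MOLM-13 gave 10 higher and 22 lower after centring, against 11.2% and 32.8% of all genes. It gave 18 higher and 8 lower after quantile normalization, against 14.9% and 17%.

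**Figure D4:**
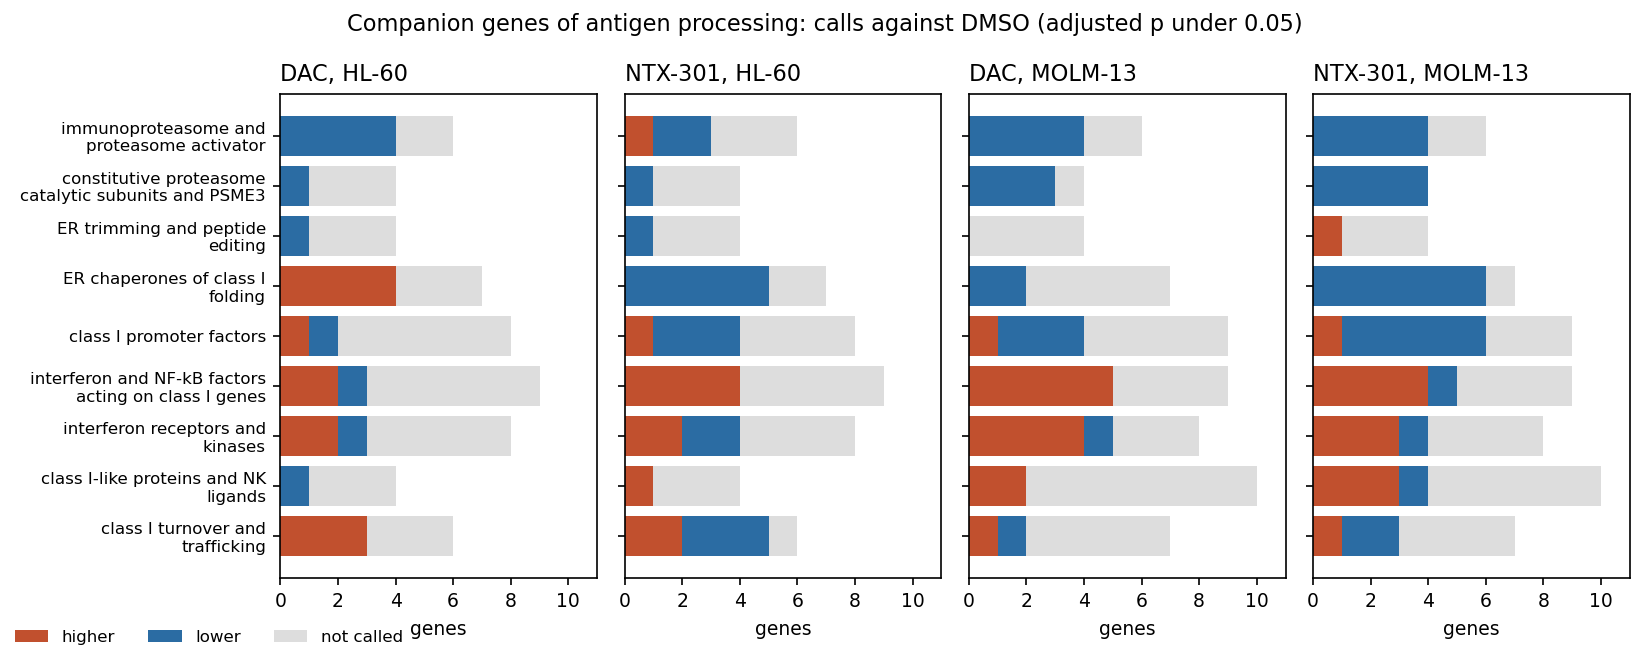
Genes called higher, lower or not called against DMSO (limma adjusted p-value under 0.05) in each of 9 lists of antigen processing genes, with 1 panel per drug and line; bar length is the number of listed genes. The proteasome lists hold lower calls in each panel, and the endoplasmic reticulum chaperone list holds higher calls with DAC and lower calls with NTX-301 in HL-60.

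The immunoproteasome has subunits that replace those of the standard proteasome when class I peptides are made. Its list held the subunits PSMB8, PSMB9 and PSMB10, the activator genes PSME1 and PSME2, and the assembly factor POMP. With DAC, 4 of these 6 genes fell in HL-60, where 12.6% of all genes were called lower. In MOLM-13 4 of 6 fell, where 21.2% of all genes did. The MOLM-13 count was 5 after centring and 3 after quantile normalization. It includes the catalytic subunit PSMB10 (−0.098, named after its values were seen), whose call was lost after quantile normalization (−0.027), without the variance trend, and without DMSO replicate 1 (−0.11), DMSO replicate 2 (−0.076), DMSO replicate 3 (−0.11), DAC replicate 2 (−0.090), DAC replicate 3 (−0.097) or NTX-301 replicate 1 (−0.098). PSME2, a subunit of its PA28 activator, was 11.75, 11.77 and 11.75 in HL-60 DMSO and 11.55, 11.47 and 11.57 with DAC, a difference of −0.23 (SE 0.030, adjusted p = 0.000102). The catalytic subunit PSMB8 fell in HL-60 by 0.14 with DAC (SE 0.026, adjusted p = 0.00175) and was not called with NTX-301 (0.041, adjusted p = 0.234). PSMB9, whose promoter window overlaps that of TAP1, had HL-60 means of 8.98 ± 0.023 (DMSO), 8.90 ± 0.040 (DAC) and 9.14 ± 0.023 (NTX-301), each ± SD over n = 3. With NTX-301 both PSMB9 (0.16, SE 0.035, adjusted p = 0.00222) and TAP1 were higher, whereas with DAC TAP1 was higher and PSMB9 was not called (−0.073, adjusted p = 0.154). Neither PSMB8 nor PSMB9 was called in MOLM-13. There, POMP, which assembles proteasomes, fell by 0.23 with DAC (adjusted p = 0.000396) and by 0.29 with NTX-301 (adjusted p = 4.43e-05), or by 0.14 and 0.19 after quantile normalization.

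The standard catalytic subunits fell in MOLM-13. PSMB5 was 12.43, 12.41 and 12.43 in DMSO, 12.21, 12.21 and 12.17 with DAC, and 12.02, 12.01 and 12.03 with NTX-301, with no overlap among the 3 groups. Its difference was −0.23 (SE 0.023, adjusted p = 2.47e-05) with DAC and −0.40 (SE 0.023, adjusted p = 3.94e-07) with NTX-301. PSMB6 fell by 0.21 and 0.30 there. PSMB7 fell by 0.13 with DAC, a call lost after quantile normalization (−0.050), and by 0.25 with NTX-301, or by 0.16 after quantile normalization. Of the 4 genes of this list, these subunits and PSME3, 3 were lower with DAC and 4 with NTX-301 in MOLM-13. Among all genes 21.2% and 24.8% were lower there. In HL-60 1 was lower with each drug, against 12.6% and 19.2% of all genes. After quantile normalization 2 and 3 were lower in MOLM-13, against 17% and 21.1%, and 1 and 0 in HL-60, against 11.5% and 19.1%. PSME3 with NTX-301 in MOLM-13 (−0.12) lost its call after quantile normalization (−0.035), without the variance trend, and without some single samples. The HL-60 call with NTX-301 was PSMB5 (−0.083, adjusted p = 0.0498), lost in 11 of 15 alternatives, among them without DMSO replicate 2 (−0.054).

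Of the enzymes and editors that finish peptides in the endoplasmic reticulum, the trimming peptidase ERAP2 fell in HL-60. It was 12.34, 12.34 and 12.34 in DMSO, 12.03, 12.02 and 12.05 with DAC, and 12.05, 12.06 and 12.09 with NTX-301. The ERAP2 difference was −0.31 (SE 0.022, adjusted p = 2.59e-07) with DAC and −0.28 (SE 0.022, adjusted p = 2.99e-07) with NTX-301. ERAP2 in MOLM-13 gave no call (−0.052 and 0.048), and its effect differed between lines by 0.25 and 0.32 (adjusted p = 6.40e-05 and 2.41e-06).

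The list of endoplasmic reticulum chaperones separated the drugs in HL-60. It held CALR, CANX, PDIA3, HSPA5 and UGGT1, which act in protein folding. It also held SEC61A1 and SEC61B, which are subunits of the general channel into the endoplasmic reticulum. NTX-301 left all 7 genes of that list called below their DAC level there, where 15.0% of all genes were called lower. After quantile normalization 6 were, against 14.6% of all genes. The call lost was that of the chaperone calreticulin (CALR, named after its values were seen). HSPA5 (BiP) was 16.18, 16.19 and 16.18 in DMSO, 16.20, 16.16 and 16.20 with DAC, and 15.85, 15.85 and 15.84 with NTX-301, a difference from DAC of −0.34 (SE 0.017, adjusted p = 9.43e-09). CANX (calnexin), which holds newly made heavy chains, was 17.32, 17.31 and 17.28 in DMSO, 17.39, 17.38 and 17.40 with DAC, and 17.07, 17.07 and 17.09 with NTX-301. It differed from DMSO by −0.23 (SE 0.017, adjusted p = 1.44e-07) with NTX-301 and by 0.086 (SE 0.017, adjusted p = 0.00197) with DAC, a rise that was −0.028 and not called after quantile normalization. Set against DMSO, 6 of these 7 genes fell with NTX-301 in MOLM-13, where 24.8% of all genes were called lower. After quantile normalization 3 did, against 21.1% of all genes.

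Of 9 factors that act on class I promoters, DAC gave 1 higher and 3 lower in MOLM-13, against 15.4% and 21.2% of all genes. NTX-301 gave 1 higher and 5 lower there, against 20.3% and 24.8%. After quantile normalization DAC gave 2 and 2, against 14.9% and 17%, and NTX-301 gave 3 and 3, against 18.7% and 21.1%. The gene called higher as deposited was CIITA, the class II relative of NLRC5, which was listed in MOLM-13 and rose with both drugs. It was 9.59, 9.38 and 9.35 in DMSO, 9.79, 10.11 and 9.94 with DAC, and 9.93, 9.99 and 9.97 with NTX-301. The CIITA difference was 0.51 (SE 0.079, adjusted p = 0.000421) and 0.52 (SE 0.079, adjusted p = 0.000236). NFYB, a subunit of the CCAAT-binding NF-Y, fell there by 0.21 (adjusted p = 0.00192) and 0.23 (adjusted p = 0.000795).

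Of 9 interferon and NF-kappaB factors, NTX-301 gave 4 higher and 0 lower in HL-60 and 4 higher and 1 lower in MOLM-13. DAC gave 2 and 1, then 5 and 0. Of 8 genes in the list of interferon receptors and kinases, NTX-301 gave 2 and 2, then 3 and 1. DAC gave 2 and 1, then 4 and 1. The shares of all genes were 18.3% and 19.2%, then 20.3% and 24.8%, with NTX-301. With DAC they were 11.6% and 12.6%, then 15.4% and 21.2%. STAT2, which carries type I interferon signals with IRF9, rose with NTX-301 in HL-60 by 0.27 (SE 0.027, adjusted p = 2.29e-06) and in MOLM-13 by 0.22 (SE 0.027, adjusted p = 4.20e-05). The interferon receptor chain IFNAR2 rose with both drugs in both lines, by 0.13 with DAC and 0.30 with NTX-301 in HL-60, then 0.15 and 0.23 in the other line. IRF1, whose product binds the interferon-stimulated response element, fell with DAC in HL-60 by 0.14 (adjusted p = 0.0131), a call lost without DMSO replicate 3 (−0.12) or DAC replicate 2 (−0.11). SOCS1, a feedback inhibitor of interferon signalling, rose with NTX-301 by 0.25 in HL-60 and 0.38 in MOLM-13 (adjusted p = 3.23e-05 and 0.000110).

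Of the class I-like genes, MR1, which presents vitamin B metabolites, went opposite ways in the lines with DAC. It was 9.60, 9.57 and 9.63 in HL-60 DMSO and 9.41, 9.48 and 9.43 with DAC, and 11.59, 11.60 and 11.64 in MOLM-13 DMSO and 11.86, 11.87 and 11.81 with DAC. The MR1 difference was −0.16 (SE 0.034, adjusted p = 0.00329) and 0.24 (SE 0.027, adjusted p = 5.03e-05), and the effects differed by 0.40 (SE 0.041, adjusted p = 7.33e-07). FCGRT, the neonatal Fc receptor chain that pairs with B2M, rose in MOLM-13 by 0.58 (SE 0.043, adjusted p = 3.13e-06) with DAC and 0.21 (SE 0.043, adjusted p = 0.00166) with NTX-301, and was not listed in HL-60.

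By likeness over the 9 samples of a line, genes near the mean of the members were CGRRF1, MGAT4B, PA2G4P4 and TTN in HL-60 (Pearson r between 0.96 and 0.98) and PLK3, DPYSL3, THBD, ARRB2 and AATBC in MOLM-13 (r between 0.98 and 0.99). The 99th percentile of all genes was 0.86 in HL-60 and 0.91 in MOLM-13. These are descriptions over 9 samples that share their libraries and treatment groups.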

How the data were processed

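Total RNA of 18 samples was sequenced with a stranded kit, per the labels' protocols. The authors deposited 1 normalized log2 value per gene and sample; the submitters' processing notes name FastQC, Trimmomatic 0.38, HISAT2, StringTie and build hg19, without giving roles. The normalization method and the handling of reads shared between genes are not given in the sources used here, and the depth is unknown.

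Each line was fitted over its 3 groups with limma 3.58.1 in R 4.3.3 (trend in eBayes, two-sided, 6 residual degrees of freedom), keeping genes whose unlogged value reached 1 in 3 or more samples, which dropped 64 HL-60 genes and 0 of MOLM-13. Benjamini-Hochberg adjustment ran over the whole table, and the difference between lines came from a fit over genes tested in both. Marker sums add linear values.

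The members and lists were chosen with earlier results of these data known. Named were the members, PSMB8, PSMB9 and IRF1, up to 3 genes per list with the lowest adjusted p against DMSO, and the 5 genes per line most like the members' mean; some genes this rule takes are not reported here. Alternatives were no filter, centring each sample on its median, quantile normalization, no variance trend, a replicate block, fitting only the 2 groups compared, and leaving out each sample.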

Additional observations from a re-analysis of the deposited data

Results flagged for a closer look

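For 10 results the drug effect differed between the lines by the limma test of the difference itself (MOLM-13 effect less HL-60 effect, log2). With DAC the gap was 0.13 for HLA-B, 0.25 for HLA-C, 0.14 for TAPBP, 0.35 for NLRC5 and −0.21 for TAP1. With NTX-301 it was 0.083 for HLA-B, 0.16 for HLA-C, 0.14 for TAP2, 0.20 for NLRC5 and −0.26 for TAP1. The TAPBP gap with DAC was not called after centring (0.11, adjusted p = 0.0558). Line and stated dose cannot be told apart in any of them.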

How the results depend on the processing

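The count of members called moved for NTX-301 against DAC in HL-60 from 2 to 5 after centring and to 4 with only the 2 groups fitted, and for NTX-301 in MOLM-13 from 3 to 6 after quantile normalization. With a sample left out, the HL-60 count was 3 to 5 for DAC and 2 to 4 for NTX-301 against DAC. Differences that changed sign were small. After centring, NTX-301 in HL-60 gave HLA-C −0.021, HLA-E −0.0066, B2M −0.029 and TAPBP −0.024, and against DAC TAP1 −0.016. In MOLM-13 it gave HLA-E −0.015, TAP1 −0.013 and TAP2 −0.017, and DAC gave B2M −0.011, or −0.019 between lines. After quantile normalization, NTX-301 gave B2M −0.0062 in HL-60, TAPBP 0.0041 against DAC there, and B2M 0.059 and NLRC5 0.066 in MOLM-13. TAP2 was 0.0052 with DAC in MOLM-13, and between lines HLA-E was 0.056 (DAC) and 0.053 (NTX-301) and B2M 0.065 (NTX-301). With a sample left out, HL-60 ranges crossed 0 for DAC in B2M (−0.022 to 0.028) and TAPBP (−0.012 to 0.036). They did so for NTX-301 in HLA-C (−0.013 to 0.025), HLA-E (−0.0022 to 0.048), B2M (−0.0055 to 0.015) and TAPBP (−0.024 to 0.030), and against DAC in B2M (−0.025 to 0.025) and TAPBP (−0.036 to 0.011). MOLM-13 ranges crossed 0 for DAC in B2M (−0.0086 to 0.058) and for NTX-301 in HLA-F (−0.0029 to 0.15), B2M (−0.045 to 0.0059), TAP1 (−0.013 to 0.034), TAP2 (−0.0030 to 0.038) and NLRC5 (−0.026 to 0.024), and against DAC in HLA-F (−0.17 to 0.022). Between lines they crossed for B2M (−0.014 to 0.053 with DAC, −0.048 to 0.0028 with NTX-301) and HLA-E (−0.033 to 0.017 with NTX-301). The causes were not tested.

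Centring left the median of all genes within 0.044 of 0 but shifted the HL-60 balance for NTX-301 from 3115 genes higher against 3265 lower to 2269 against 6101. The centred balance was 1751 against 5832 for NTX-301 against DAC there (2622 against 2563 as deposited), 1960 against 5731 for DAC in MOLM-13 (2689 against 3705), 2735 against 5760 for NTX-301 in MOLM-13 (3543 against 4337) and 1353 against 4585 for the line difference with DAC (1871 against 2767). Same-numbered samples did not deviate together (r from −0.057 to 0.12 in HL-60 and from −0.16 to 0.11 in MOLM-13). With the replicate block, 3 members were called for NTX-301 against DAC in HL-60, and HLA-B between lines with NTX-301 was not (0.083, adjusted p = 0.0536). Against DMSO, HLA-B in both lines, TAP1 and NLRC5 in HL-60, and HLA-C in MOLM-13 kept direction and call with both drugs in each alternative run. Depth is unknown, so no limit of detection is given.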
